A study of Mus musculus with 3 samples.

Results

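The genes described here encode the cytoplasmic ribosomal proteins, and their messages were read in LT-HSCs, the long-term stem cells of the blood, from mice labelled as wild type, as knockouts of Atm alone or as knockouts of Atm together with p38α. Members were the array genes whose symbol starts with Rpl or Rps followed by a digit, without the S6 kinase names (Rps6k), Rps27l, Rps19bp1 and pseudogene symbols that contain -ps. The rule took 81 of 37074 genes, of which 50 belonged to the large subunit (Rpl) and 31 to the small subunit (Rps). These genes had 176 of the 56605 non-control probes, and the probe with the highest mean signal over the 3 arrays stood for each gene.

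Each cytoplasmic ribosome joins a large and a small subunit, in which ribosomal proteins are folded together with ribosomal RNA. The small subunit reads the message and the large subunit links amino acids and lets the new chain out through its exit tunnel. Ribosomal proteins are needed in fixed proportions, their messages are among the most abundant of a cell, and many begin with a stretch of pyrimidines, the 5′ terminal oligopyrimidine tract, through which mTOR signalling controls their translation. In blood formation they are known for Diamond-Blackfan anaemia, in which the loss of 1 copy of such a gene impairs red cell production, and hematopoietic stem cells are known for a low rate of protein synthesis.

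The series holds 3 arrays, 1 for each genotype, labelled WT, AtmsKO and Atmp38dKO, and every mouse was C57BL/6J. AtmsKO mice carried CAG-CreERT2 with Atm flox/flox, and Atmp38dKO mice carried CAG-CreERT2 with Atm flox/flox and p38α flox/flox, so that Cre was ubiquitous and not limited to blood cells. Mice received tamoxifen at about 5 weeks of age and were analysed 4 weeks later, while the labels give an age of 11 weeks. The study's methods describe the controls as tamoxifen-treated mice without the Cre, so the WT array shares the drug but not the recombinase. How many mice were pooled for an array is not stated in the sources used here. The labels give the sort from bone marrow as CD150+CD48-Flt3-CD34- LSK cells, to which the study's methods add CD41-, and LSK stands for lineage-negative, Sca-1-positive and c-Kit-positive cells. With 1 array per genotype there were no replicates, so no difference between genotypes has a test or an error between animals, and each is a difference between single arrays. Differences are given on the log2 scale after each array was centred on its 75th percentile.

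The arrays were first checked against their labels. The Atm probe at chr9:53245871-53245930 (mm9) read 88.8 (WT), 16.3 (AtmsKO) and 49.0 (Atmp38dKO). The other Atm probe, at chr9:53247691-53247750, gave 87.0, 23.9 and 86.5. Signals of Mapk14, which encodes p38α, were 469, 558 and 616 for a probe at chr17:28873965-28874024 and 295, 260 and 345 for a probe at chr17:28885290-28885349. Atm was thus low on the AtmsKO array, but on the Atmp38dKO array only 1 of its probes was, and Mapk14 was not lower there than on the WT array. It is therefore called the array labelled Atmp38dKO. Whether these probes lie in the deleted exons was not tested. All 10 LT-HSC markers, among them Slamf1, Procr, Mecom, Hlf and Fgd5, were well above background on the 3 arrays. So were 8 of 8 granulocyte, 5 of 6 erythroid, 4 of 5 B cell, 3 of 5 T cell and 4 of 4 megakaryocyte markers, whose part in the differences below was not tested. Taking the arrays in the order WT, AtmsKO and Atmp38dKO, which is kept wherever 3 values follow each other, summed signals of the megakaryocyte markers were 1490, 2817 and 2084, and those of the granulocyte markers 3097, 3456 and 4167. Most of the megakaryocyte sum was Pf4, at 1020, 2366 and 1536, and megakaryocytes carry CD41, which the gate of the methods selected against. The 75th percentile of the signal was 102, 96.2 and 118, and 68.9 to 77.7% of probes were well above background.

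Start site sequences are given first, since the pyrimidine tract is a mark of this gene class. RefSeq (GRCm38.p6) entries, each 250 bases before to 50 bases after an annotated start, were found for 61 of the 81 members and held 72 of 32851 entries. A run of at least 10 pyrimidines within 40 bases of the start was found on the gene's own strand in 51.4% of member entries and in 14.3% of all entries. On the opposite strand the shares were 11.1% and 15.8%. CTCTTTCC, on either strand anywhere in the 300 bases, was found in 18.1% of member and 3.12% of all entries. CCGGAAG, the core of the sites of ETS factors, was found in 33.3% and 8.86%, and AAGATGGC, a site of YY1, in 11.1% and 2.75%. TATAAA was held by 8.33% of member and 13.6% of all entries. These are matches of letters only. The windows below run from 40 bases before to 30 bases from the annotated start, on the gene's strand, for the members that lead the comparisons or the role groups. Capitals mark the longest run of pyrimidines where it has 8 or more bases.

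Rpl5, chr5:107900488-107900557, plus strand: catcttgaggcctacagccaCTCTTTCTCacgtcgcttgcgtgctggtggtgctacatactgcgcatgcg
Rpl11, chr4:136053364-136053433, minus strand: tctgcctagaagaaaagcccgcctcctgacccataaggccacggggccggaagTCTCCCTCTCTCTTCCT
Rps6, chr4:86857338-86857407, minus strand: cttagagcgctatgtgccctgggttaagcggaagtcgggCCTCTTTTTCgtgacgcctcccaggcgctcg
Rpl22, chr4:152325686-152325755, plus strand: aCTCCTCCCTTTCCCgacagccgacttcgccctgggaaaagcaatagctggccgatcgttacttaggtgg
Rpl27, chr11:101442205-101442274, plus strand: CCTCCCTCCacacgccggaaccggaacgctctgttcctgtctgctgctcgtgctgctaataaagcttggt
Rps12, chr10:23787180-23787249, minus strand: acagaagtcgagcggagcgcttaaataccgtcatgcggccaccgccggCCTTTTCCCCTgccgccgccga
Rps24, chr14:24490713-24490782, plus strand: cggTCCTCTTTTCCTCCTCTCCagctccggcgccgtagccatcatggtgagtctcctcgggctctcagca
Rps25, chr9:44407674-44407743, plus strand: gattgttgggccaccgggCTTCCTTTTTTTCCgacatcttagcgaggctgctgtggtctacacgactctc
Rps4x, chrX:102189362-102189431, minus strand: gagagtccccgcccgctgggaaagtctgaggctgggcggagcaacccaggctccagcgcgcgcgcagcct
Rpl10l, chr12:66284372-66284441, minus strand: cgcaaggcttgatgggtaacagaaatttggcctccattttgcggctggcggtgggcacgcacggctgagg

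Within these windows the longest runs were 19 bases in Rps24, 17 in Rpl11 and 14 each in Rps25 and Rpl22. The run of Rps6 lay across the annotated start, and those of Rps24, Rps25 and Rpl22 lay before it. That of Rpl11 began 13 bases after the start and reached the end of the window, so its full length is not shown. Whether any of these runs begins a message was not tested. Rps4x and Rpl10l had no run above 5 bases. Members with a run of at least 10 near the start and members without it differed little on the arrays. The 34 measured members with the run had a median log2 difference of 0.092 in AtmsKO against WT, and the 24 without it 0.066. The medians were -0.22 and -0.17 in Atmp38dKO against AtmsKO, and -0.12 and -0.12 in Atmp38dKO against WT.

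Ribosomal protein probes gave strong signals. Of the 81 members, 78 were well above background on all 3 arrays, and 74 had a mean signal of at least 1000. The median member signal was 10846, 10865 and 12316, and no probe of the arrays was saturated. Rpl37, Rpl39l and Rpl3l were not well above background on any array and enter no comparison. Rpl3l is known from striated muscle and Rpl39l from testis, but Rpl37 is a subunit of every ribosome, and its only probe gave 3.89, 2.63 and 3.85. A probe for Rpl37rt, a retrotransposed copy of Rpl37, gave 21597, 21648 and 24796. The first 30 bases of the 60-base probes show that these are different sequences, and the longest run of bases that they share is 7.

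Rpl37 probe, chr15:5068935-5068994 (mm9): ctaccatgcctacagtgtcttaagacgctt
Rpl37rt probe, chr5:115552931-115552973 (mm9): gaaacccaagagggcagtgtcgcagcatcc

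Which of the Rpl37 and Rpl37rt messages the latter probe reads was not tested. Of the 175 member probes with mm9 coordinates, 7 lay on another chromosome than the gene in RefSeq, and they belonged to Rpl13, Rpl36, Rps27 and Rps29. For Rpl13, Rps27 and Rps29 the reported probe was among them. Rpl13 read -0.018 in AtmsKO against WT at its probe on chr4. On chr8, where RefSeq places the gene, its strong probes read 0.054 and -0.076.

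No member differed 2-fold between any pair of arrays. The share of all measured genes that did was 8.03% in AtmsKO against WT, 8.50% in Atmp38dKO against WT and 7.48% in Atmp38dKO against AtmsKO. Strong signals vary less than weak ones, as the plot of differences against signal shows, so members were also set beside the 442 other genes with a mean signal of at least 10000. Of those, 0.452%, 1.36% and 1.13% differed at least 1.5-fold in the same 3 comparisons. At 1.5-fold, only Rpl10l was called among the members, as lower in AtmsKO and in Atmp38dKO against WT, where 10.2% and 10.6% of all genes were lower by that much. In Atmp38dKO against AtmsKO no member was, in either direction, beside 18.9% of all genes.

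**Figure D1:**
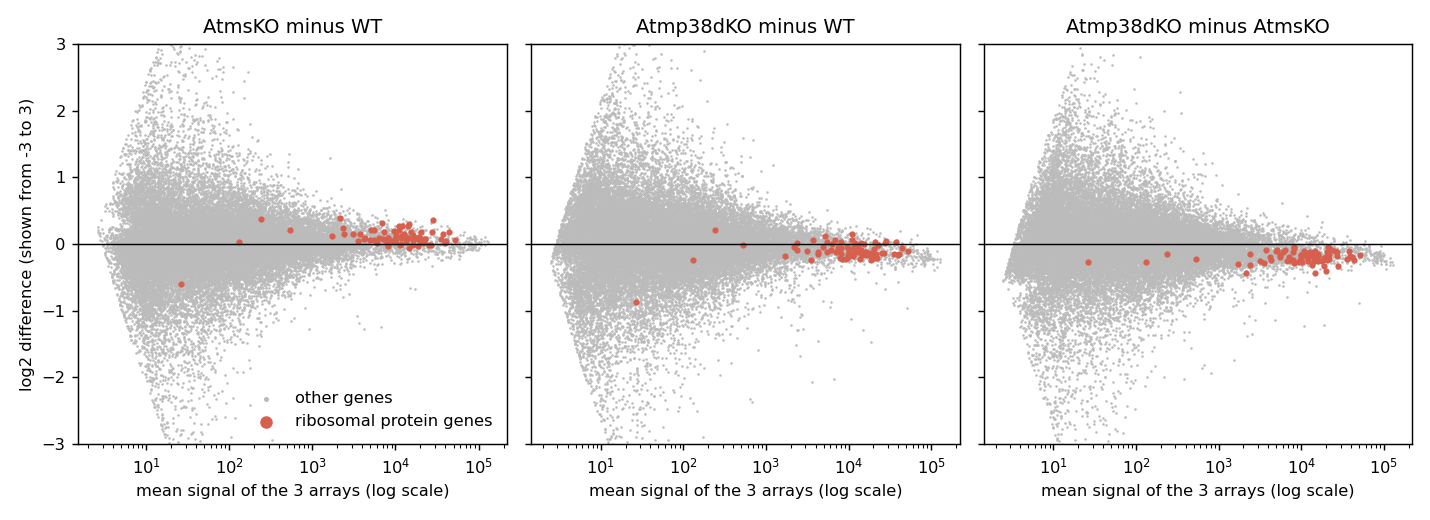
Log2 difference between 2 arrays (vertical axis, shown from -3 to 3) against the mean signal of the 3 arrays (horizontal log axis) for every measured gene (grey) and for the 78 measured ribosomal protein genes (orange), with a panel for each pair of arrays. The ribosomal protein genes lie in the narrow right part of the cloud, mostly above 0 in AtmsKO minus WT and all below 0 in Atmp38dKO minus AtmsKO.

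What the members showed was a small shift in common. In AtmsKO against WT, 70 of 78 members were above 0, where 51.0% of all genes were, and the median member was 0.083 higher, a fold of 1.06. In Atmp38dKO against WT, 62 of 78 were below 0, where 47.8% of all genes were, with a median of -0.11. In Atmp38dKO against AtmsKO, 78 of 78 were below 0, where 50.5% of all genes were, with a median of -0.19, a fold of 0.878. Medians over all genes were 0.0081, 0.020 and -0.0047 in these comparisons, which share arrays and are not independent of each other. As the RNA came from bulk sorted cells, fewer cells with these messages and less message per cell cannot be told apart.

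On the scale of the 75th percentile, other genes with strong signals were lower on the array labelled Atmp38dKO too. The 442 other genes with a mean signal of at least 10000 had medians of 0.00020 in AtmsKO against WT, -0.12 in Atmp38dKO against WT and -0.14 in Atmp38dKO against AtmsKO, and in the last 86.2% of them were below 0. Their medians in Atmp38dKO against AtmsKO were 0.0059, 0.012 and 0.0098 under quantile, cyclic loess and normexp scaling, and 0.013, -0.016 and 0.0049 in Atmp38dKO against WT, so their direction rests on the scaling. Beside them, on the first scale, the median member was 0.083 higher, 0.0061 higher and 0.049 lower. The first and the third of these offsets kept their sign under each of 4 other scalings, at 0.048 to 0.083 and at -0.049 to -0.080, but the second turned to between -0.028 and -0.0049 under quantile, cyclic loess and normexp scaling. Beside the wider set of 2610 other genes with a mean signal of at least 1000, the median member was 0.048 higher, 0.066 lower and 0.091 lower. With that set the 3 offsets kept their sign under the same 4 scalings, at 0.046 to 0.048, -0.066 to -0.016 and -0.091 to -0.059, so the second offset changed sign with the choice of genes and the third was larger. Without the paralogs the spread among members was also narrower. The SD over the 72 measured members without the paralogs was 0.094, 0.088 and 0.083, and over the 442 other genes 0.130, 0.167 and 0.155. Over all 78 measured members it was 0.126, 0.132 and 0.083, so in AtmsKO against WT it was close to that of the other genes. Not every member had a mean signal of at least 10000, so these sets were not matched by signal.

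The size of the differences to the array labelled Atmp38dKO depends on how the arrays are put on 1 scale. Before scaling, 64 of 78 members had their highest signal on that array. The median in Atmp38dKO against AtmsKO was -0.065 under quantile normalization, -0.068 under cyclic loess and -0.052 after normexp background correction, with 59, 64 and 61 of 78 members below 0. The median in Atmp38dKO against WT was -0.015, -0.035 and 0.0000 under the same settings, so no direction is drawn from that comparison as a whole. In AtmsKO against WT the median stayed above 0, at 0.044, 0.038 and 0.042, while the members below 0 went from 8 to 14, 19 and 16. The signs of single members and of role groups given below are those on the scale of the 75th percentile.

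**Figure D2:**
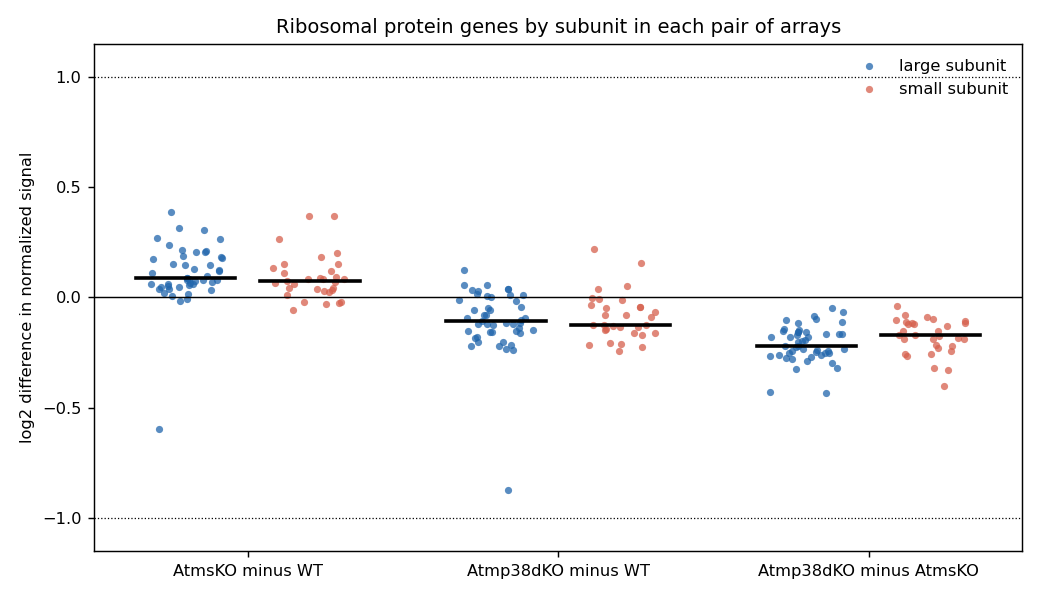
Log2 difference of each measured ribosomal protein gene (points) in the 3 pairs of arrays, with large subunit genes in blue and small subunit genes in orange. Black bars are medians, dotted lines mark 2-fold, and the medians of both subunits lie on the same side of 0 in each pair, with Rpl10l as the lowest point in both comparisons with WT.

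Large and small subunit genes had medians on the same side of 0 in each comparison. Over 47 large subunit genes the median was 0.087 in AtmsKO against WT and over 31 small subunit genes 0.074, a difference of 0.013. In Atmp38dKO against WT the medians were -0.11 and -0.12, and in Atmp38dKO against AtmsKO -0.22 and -0.17, a difference of -0.046. The sign of the difference between subunits in Atmp38dKO against WT, 0.018, turned with the scaling. Within either subunit the genes themselves ranged far wider, in AtmsKO against WT from -0.60 to 0.39 for the large and from -0.057 to 0.37 for the small subunit.

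The 36 members whose probe was printed at least 5 times on each array allow the technical error to be stated. The SE of a difference from these spots covers the measurement on the array but not animals, sorts, labelling or the scaling of the arrays. It was 0.014 to 0.039 in AtmsKO against WT. In that comparison 29 of 36 were higher by more than 2 SE and 0 were lower. Against AtmsKO, the array labelled Atmp38dKO was lower by more than 2 SE in 35 of 36. In Atmp38dKO against WT 22 were lower and 2 were higher. These counts hold on the scale of the 75th percentile, and probes of other genes were not counted in this way. On that scale 50.2% of the 442 other genes with strong signals were above 0 in AtmsKO against WT. In Atmp38dKO against WT 84.2% of them were below 0, and in Atmp38dKO against AtmsKO 86.2%.

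**Figure D3:**
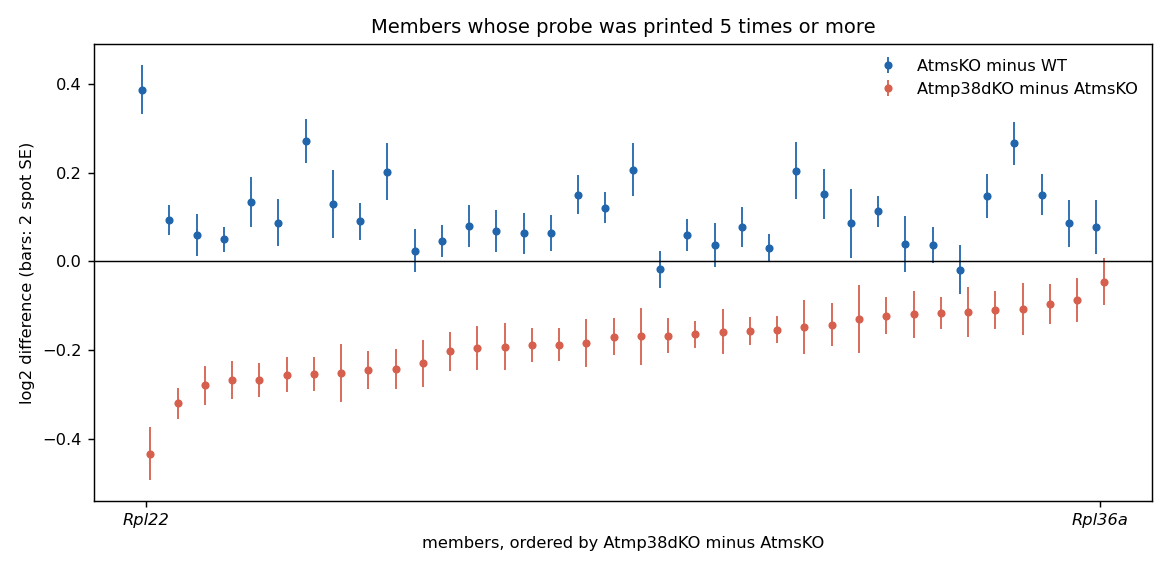
Log2 difference of the 36 members with at least 5 copies of their probe, 1 place on the horizontal axis each, ordered by Atmp38dKO minus AtmsKO (orange), with AtmsKO minus WT in blue. Bars span 2 spot SE on each side, and only Rpl36a has a bar that reaches 0 in Atmp38dKO minus AtmsKO, while 29 members lie above 0 by more than their bar in AtmsKO minus WT.

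Further probes of the same genes gave a second reading, though of the same RNA, on the same arrays and on the same scale. The 69 other probes with a mean signal of at least 1000 were above 0 in 56 cases in AtmsKO against WT, with a median of 0.11. In Atmp38dKO against AtmsKO 68 of them were below 0, with a median of -0.19. Of the 2610 other genes with a mean signal of at least 1000, 58.2% were above 0 and 69.6% below 0 in these comparisons. Between strong probes of 1 gene the SD was 0.085 in AtmsKO against WT, and between the 52 genes with several such probes it was 0.082. For Atmp38dKO against AtmsKO the SDs were 0.059 and 0.067. A single member's departure from the others was therefore about as large as the disagreement between its probes. The 26 weaker probes scattered more, with SDs of 0.43 to 0.54.

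Some members stood at the ends of these narrow ranges. Rpl22, a large subunit protein that binds RNA and is known for its need in T cell development, gave 1938, 2402 and 2178. It was highest on the AtmsKO array, with a log2 difference of 0.39 (spot SE 0.028), a fold of 1.31 over WT, and -0.43 (spot SE 0.030) in Atmp38dKO against AtmsKO. Rpl27, a large subunit protein affected in some Diamond-Blackfan patients, gave 13491, 15819 and 14392, with differences of 0.31 and -0.43. Its other probe, printed 10 times, read 0.23 and -0.22, so that both probes had the same sign and the second a smaller size. Rps12, a protein of the beak of the small subunit, gave 24790, 30321 and 29575. Its differences were 0.37 in AtmsKO against WT and -0.33 in Atmp38dKO against AtmsKO, again with the highest signal on the AtmsKO array. Its other probe, with a mean signal of 209, read -0.16 and 0.34, the opposite sign in both. Rpl14, of the large subunit, gave 6035, 7121 and 7281, and was 0.32 higher in AtmsKO than in WT, with 0.18 at its other probe.

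Rps24, a small subunit protein also affected in Diamond-Blackfan anaemia, gave 19588, 21115 and 19591. It was -0.40 in Atmp38dKO against AtmsKO, and its other strong probes read -0.31 and -0.27. Rpl38, known for its part in the translation of Hox messages in the embryo, gave 18817, 19261 and 18814, a difference of -0.33 between the same arrays. For Rps24 and Rpl38 the WT signal and that of the array labelled Atmp38dKO were nearly equal before scaling, and after it they were -0.21 and -0.22 in Atmp38dKO against WT. At the other end of that comparison, Rps4x was -0.039 and Rpl36a was -0.046 (spot SE 0.026). The other strong probe of Rps4x read -0.16, and the other probes of Rpl36a read -0.098 and -0.15. The place of either gene at the end was thus that of 1 probe.

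On this scale 8 of 78 members were below 0 in AtmsKO against WT. Apart from Rpl10l, the lowest were Rps21 at -0.057, Rps25 at -0.029 and Rps4x at -0.025. Rps25, which some viral internal ribosome entry sites require, gave 19305, 17932 and 18908, but its weaker probe read 0.22. Rps21 and Rps4x also gave their lowest unscaled signal on the AtmsKO array.

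In Atmp38dKO against WT the members at the upper end included Rps4l at 0.22, Rpl36al at 0.13, Rpl18 at 0.057 and Rpl14 at 0.056. The other probe of Rpl36al read -0.054 in that comparison, that of Rpl18 -0.042 and that of Rpl14 -0.091, so the sign was not shared between the probes of these 3 genes. Below Rpl10l, the lowest were Rps25 at -0.25, Rpl7l1 at -0.24, Rpl26 at -0.23 and Rps18 at -0.23. Rps18, at the head of the small subunit, gave 13603, 13754 and 13491 and its other probes read -0.14 and -0.15. These signals were close to each other on the 3 arrays, and the difference arose with the scaling.

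Rpl5 and Rpl11 carry the 5S ribosomal RNA into the large subunit and, when left unassembled, bind Mdm2 and so stabilise p53. Rpl5 gave 4981, 5449 and 5934, and Rpl11 gave 1683, 1731 and 1726. Rpl5 was 0.21 (spot SE 0.030) and Rpl11 was 0.12 in AtmsKO against WT, and they were -0.17 and -0.30 in Atmp38dKO against AtmsKO. Both were thus on the side of most members, and in Atmp38dKO against WT they were 0.038 and -0.18.

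Small subunit proteins that line the path of the message include Rps2 and Rps3 at its entry, Rps15 and Rps23 at the decoding site, and Rps26 and Rps28 at its exit. All 6 were above 0 in AtmsKO against WT, from 0.070 for Rps26 to 0.15 for Rps2, beside 70 of 78 members. Rps2 gave 3416, 3591 and 4116 at its probe at chr17:24857583-24857642 (mm9), and its other strong probe read 0.22 in that comparison. That other probe is placed apart from it, at chr17:42864841-42864900, and whether it reads the Rps2 message was not tested. Rps23 gave 9912, 10314 and 10494, with 0.13 in AtmsKO against WT and -0.27 in Atmp38dKO against AtmsKO. All 6, like 78 of 78 members, were below 0 in that last comparison. Rps26 was the nearest to 0 in Atmp38dKO against AtmsKO at -0.078, with signals of 21466, 21357 and 24767. Rps15 read 35110, 35024 and 36849, near equal on the WT and AtmsKO arrays before scaling and 0.074 higher in AtmsKO after it. Rps28 and Rps3 differed by 0.087 and 0.085 in AtmsKO against WT and by -0.26 and -0.13 in Atmp38dKO against AtmsKO.

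Proteins of the exit tunnel and its rim were 7 of 7 above 0 in AtmsKO against WT, beside 70 of 78 members. In Atmp38dKO against AtmsKO 7 of 7 were below 0, beside 78 of 78 members. Over all genes these shares were 51.0% and 50.5%. The medians of the group were 0.059 and -0.22, and those of all members 0.083 and -0.19. The counts thus do not set this group apart from the other members. Rpl4 reaches into the tunnel and gave 25294, 27279 and 29533, with 0.19 in AtmsKO against WT. Rpl35, at the rim where nascent chain factors dock, gave 6924, 7462 and 7718, with 0.19, and its other probe read 0.26. Rpl39 sits near the end of the tunnel and gave 21498, 20576 and 22435, with 0.014, the lowest of the group. Its 4 other probes ranged from -0.050 to 0.22. Rpl23a and Rpl31, also at the rim, were 0.047 and 0.082 in that comparison, Rpl17 was 0.059, and Rpl26 was 0.052.

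Rps6 is the subunit that S6 kinases phosphorylate downstream of mTOR, and Rps27a is made as a fusion with ubiquitin. Rps6 gave 7696, 7491 and 8445, and Rps27a gave 7896, 7714 and 7907. Their differences were 0.038 (spot SE 0.032) and 0.044 in AtmsKO against WT, and -0.12 (spot SE 0.027) and -0.26 in Atmp38dKO against AtmsKO. The difference of Rps6 in AtmsKO against WT was within 2 spot SE, and its other probe read 0.070.

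Of the genes affected in Diamond-Blackfan anaemia, 19 were measured. All 19 were above 0 in AtmsKO against WT, from 0.024 for Rps10 to 0.31 for Rpl27, with a median of 0.087. All 19 were below 0 in Atmp38dKO against AtmsKO, from -0.43 for Rpl27 to -0.078 for Rps26, with a median of -0.22. These medians lie close to those of all members, 0.083 and -0.19. Of all members 70 of 78 were above 0 and 78 of 78 below 0 in these comparisons, and of all genes 51.0% and 50.5%. Rps19, the gene most often affected, gave 9021, 9837 and 10175, a difference of 0.20 (spot SE 0.032) in AtmsKO against WT. Its next probe read 0.0053, so that the size at the reported probe was not shared by the other.

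**Figure D4:**
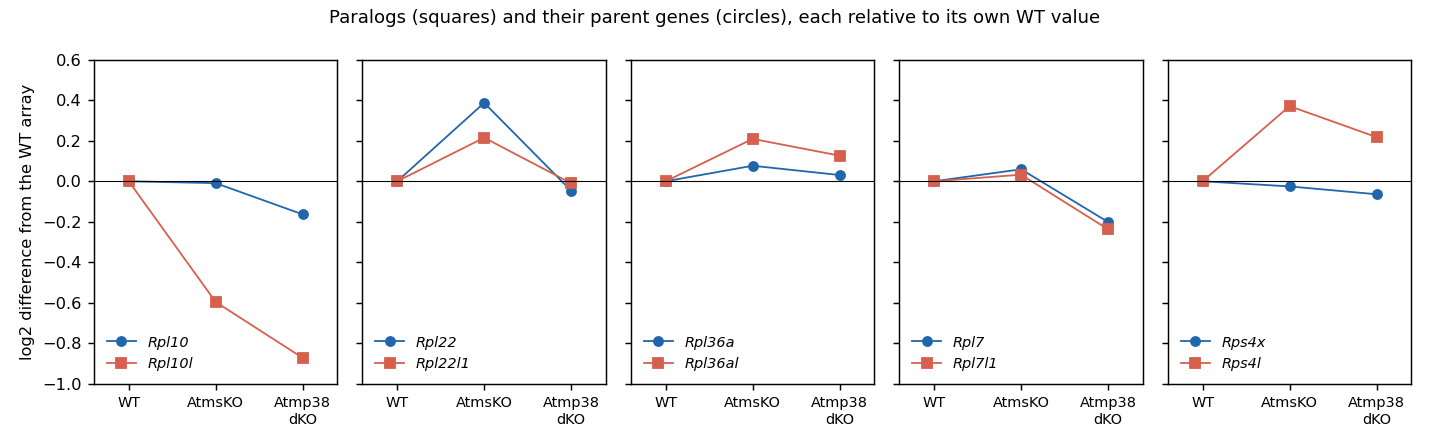
Log2 difference from the WT array for 5 paralogs (orange squares) and their parent genes (blue circles), with each gene's own WT value set to 0 and 1 array per point. Rpl10l lies lower than Rpl10 on both other arrays and Rps4l higher than Rps4x, while the other pairs keep close to each other.

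A paralog is a second gene for the same subunit, in most cases with a restricted pattern of expression. Rpl10l, which stands in for Rpl10 in male germ cells, gave 35.1, 22.0 and 22.3. It was -0.60 in AtmsKO against WT and -0.87 in Atmp38dKO against WT, the lowest member in both, while Rpl10 was -0.0092 and -0.16. Its signals were low, though well above background, and after normexp correction its differences shrank to -0.19 and -0.27. Rps4l, annotated as a non-coding transcript, gave 201, 247 and 272, and was 0.37 and 0.22 against WT, while Rps4x was -0.025 and -0.064. The first 30 bases of both Rpl10 and Rpl10l probes are shown, and the longest run of bases that these probes share is 5. Comparing the probes with each other cannot show which message either of them reads. Whether the Rpl10l probe also reads the Rpl10 message was not tested.

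Rpl10 probe, chrX:71518307-71518366 (mm9): agacatggttgttgagaagtggctcattcc
Rpl10l probe, chr12:67384868-67384927 (mm9): accaagctgcagaacaaggagcacgtgatc

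Rpl22l1, which can replace Rpl22, gave 492, 541 and 567. Both genes of this pair were higher in AtmsKO than in WT, Rpl22l1 by 0.22 and Rpl22 by 0.39, and near WT on the array labelled Atmp38dKO, at -0.0097 and -0.047. Rpl36al, which codes for nearly the same protein as Rpl36a, gave 4567, 5005 and 5787, with 0.21 in AtmsKO against WT, while Rpl36a was 0.077. Rpl7l1, a protein known from ribosome assembly, gave 134, 130 and 132, with 0.033 in AtmsKO against WT beside 0.059 for Rpl7. Rpl37rt was 0.081 in AtmsKO against WT and -0.096 in Atmp38dKO against AtmsKO. The paralogs as a group, 6 of 8 measured, had an SD of 0.34 in AtmsKO against WT, beside 0.094 for the other members. Of the 6, Rpl10l, Rpl7l1, Rps4l and Rpl22l1 had signals under 1000 on every array.

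Cytoplasmic subunits whose symbols the rule does not take gave the same picture. These include the stalk proteins Rplp0, Rplp1 and Rplp2, Rpsa, the ubiquitin-like fusion Fau, and Gnb2l1, the small subunit scaffold also called RACK1. Above 0 in AtmsKO against WT were 5 of these 6, and in Atmp38dKO against AtmsKO all 6 were below 0. Over all genes these shares were 51.0% and 50.5%. Gnb2l1 gave 5493, 6244 and 6789, the largest difference of the 6 in AtmsKO against WT at 0.26. Rpsa was 0.20 in that comparison, Rplp1 was 0.075, Rplp2 0.046 and Rplp0 0.015, and Fau was -0.017. The range in Atmp38dKO against AtmsKO was -0.19 for Rpsa and Rplp2 to -0.11 for Fau.

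**Figure D5:**
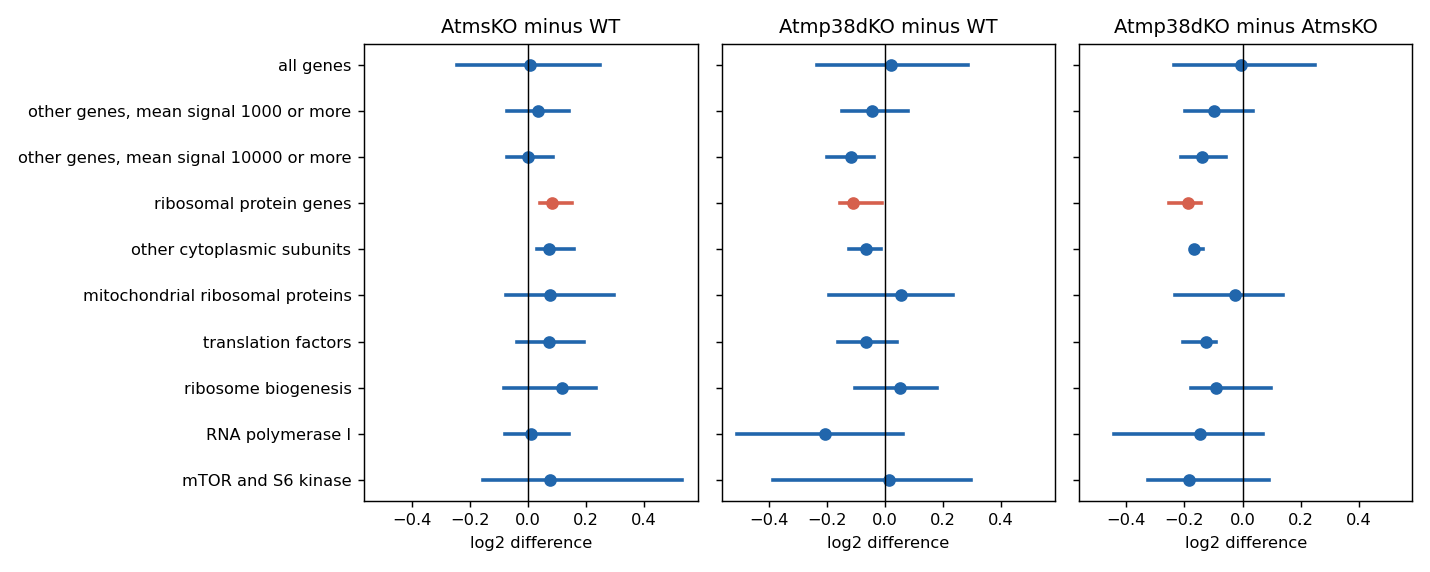
Median (point) and middle 50% of genes (line) of the log2 difference for gene lists in the 3 pairs of arrays, with the 78 measured ribosomal protein genes in orange. Cytoplasmic ribosomal proteins and the other cytoplasmic subunits have short lines, and mitochondrial ribosomal proteins, assembly factors and mTOR pathway genes have lines that cross 0.

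Genes around the ribosome were less uniform than its own proteins, but their signals were not matched to those of the members. Many of them were far weaker, and weak signals spread more widely on these arrays. For the counts in these lists, 51.0% of all genes were above 0 in AtmsKO against WT. In Atmp38dKO against AtmsKO 50.5% of all genes were below 0. Of 40 translation factors, 29 were above 0 in AtmsKO against WT (median 0.072) and 34 were below 0 in Atmp38dKO against AtmsKO (median -0.13), and none differed 2-fold. The largest difference was that of Eif5b, which joins the subunits at the start codon, with 40.7, 74.3 and 50.8, or 0.95 and -0.84 in these comparisons. The lowest in AtmsKO against WT was Eif5 at -0.38, which aids start codon choice and was also the lowest in Atmp38dKO against WT at -0.37, where Eif4g1 was the highest at 0.36. Eif3c was the highest in Atmp38dKO against AtmsKO at 0.18.

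Of 44 ribosome biogenesis genes, 28 were above 0 in AtmsKO against WT, with a median of 0.12, and 27 were below 0 in Atmp38dKO against AtmsKO, with a median of -0.092. Rbm19, needed for processing of ribosomal RNA, gave 84.7, 22.7 and 77.1, and at -1.82 was the 1 gene of the list that was 2-fold lower in AtmsKO than in WT. Eftud1, which frees the large subunit of a late assembly factor, gave 39.9, 29.1 and 132, the highest of the list in Atmp38dKO against WT at 1.51 and against AtmsKO at 1.88. Wdr75 was the highest in AtmsKO against WT at 0.60, Lsg1 the lowest in Atmp38dKO against WT at -0.54 and Nop2 the lowest in Atmp38dKO against AtmsKO at -0.62.

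RNA polymerase I and its factors, 14 genes, had medians of 0.013 in AtmsKO against WT and -0.21 in Atmp38dKO against WT. Taf1b, of the selectivity complex SL1, gave 68.8, 172 and 51.3, the only gene of the list that was 2-fold higher in AtmsKO than in WT, at 1.40, and the lowest in Atmp38dKO against AtmsKO at -2.03. Taf1a, of the same complex, was well above background on the WT array only and was at least 1.79-fold lower in AtmsKO and at least 2.70-fold lower in Atmp38dKO. Polr1b was the highest in Atmp38dKO against WT at 0.51 and Taf1d in Atmp38dKO against AtmsKO at 0.40.

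Among 20 mTOR and S6 kinase pathway genes the differences were the widest of these lists, with an SD of 0.71 in AtmsKO against WT and 0.91 in Atmp38dKO against AtmsKO. Rptor, the scaffold of mTOR complex 1, gave 25.5, 68.6 and 8.35, or 1.51 in AtmsKO against WT, -1.83 in Atmp38dKO against WT and -3.33 in Atmp38dKO against AtmsKO. Mtor itself gave 45.4, 36.0 and 63.9, the highest of the list in the last comparison at 0.53, while Rps6kb1, the kinase of Rps6, gave 868, 849 and 1136. Rps6ka2 was well above background on the AtmsKO array only and was at least 4.17-fold higher there than on the WT array. Rps6ka4 was the lowest in AtmsKO against WT at -0.80 and Eif4ebp2 the highest in Atmp38dKO against WT at 1.06. These signals were mostly far weaker than those of the members, and genes as weak spread more widely on these arrays.

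The 77 mitochondrial ribosomal proteins, which build a separate ribosome, were above 0 in 49 cases in AtmsKO against WT, with a median of 0.075. Between AtmsKO and Atmp38dKO 41 were lower in the latter and 36 higher, with a median of -0.024, beside -0.19 for the cytoplasmic members. Their SDs of 0.35 to 0.43 were wider than those of the cytoplasmic genes, and their signals were not matched to them.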

How the data were processed

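RNA of sorted LT-HSCs was labelled with Cy3 and hybridised to 1-colour Agilent arrays, all 3 on 1 slide, which were read with Agilent Feature Extraction 11.5.1.1 per the submitters' processing notes. The deposited scanner files hold background-corrected, not normalized intensity values (gProcessedSignal) for 62976 spots each. The deposited series table holds log2 values by the authors, which equalled log2 of that signal minus the array's 75th percentile within 0.02 for 99.72 to 99.97% of probes. The authors' own comparisons were not used.

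Here, spots flagged as outliers (57, 75 and 83 in the order WT, AtmsKO, Atmp38dKO) and control spots were left out, copies of a probe were averaged, and log2 signals were centred on the 75th percentile. A probe was well above background where more than 50% of its spots were flagged so. Values that were not were raised to the array's lowest value that was, and a gene needed 1 such array in a pair. Calls were folds of 2 and 1.5, and with 1 array per genotype no test was run. The number of arrays limits the precision. Quantile, cyclic loess and normexp (offset 50) settings used limma 3.58.1 in R 4.3.3, the rest Python 3.11.15 with pandas 2.3.3. The steps were tested on simulated data.

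The members and all gene lists were chosen with earlier results of these data known. Named are the 5 highest and 5 lowest members of each comparison, the members of the role groups and paralogs, members not above background, and the ends of the other lists. Rps10, Rps19, Rpl13, Rpl36, Rps27, Rps29 and Rps6kb1 were named after their values were seen. Some members that meet this rule are not reported here by name. Probe coordinates are mm9, per the file headers, and promoters GRCm38.p6. Probes can also read near-identical copies of these genes elsewhere in the genome.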

Additional observations from a re-analysis of the deposited data

How the results depend on the processing

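The 3 medians, the 3 subunit differences and the 3 counts of 2-fold members were recomputed under 10 alternatives: centring on the median, quantile, cyclic loess, normexp, no floor, a filter on all 3 arrays, the mean over a gene's probes, the authors' log2 values, and the members without paralogs, with and without Rpl37rt, the last chosen after seeing the data. The median in AtmsKO against WT stayed above 0, from 0.038 (cyclic loess) to 0.10 (mean over probes). The subunit difference ranged from 0.0087 to 0.027 in AtmsKO against WT and from -0.050 to -0.013 in Atmp38dKO against AtmsKO, but in Atmp38dKO against WT it turned from 0.018 to -0.028 (quantile), -0.0036 (cyclic loess), -0.031 (normexp) and -0.0034 (mean over probes), so no order of the subunits is drawn there. The median in Atmp38dKO against WT became -0.015 (quantile), -0.035 (cyclic loess) and 0.0000 (normexp), and that in Atmp38dKO against AtmsKO -0.065, -0.068 and -0.052. The count of 2-fold members in AtmsKO against WT became 1 with no floor, through Rpl39l, which was not above background. The small subunit median in Atmp38dKO against WT turned to 0.0066 under normexp. The causes were not tested. Members below 0 in AtmsKO against WT went from 8 to 14 (quantile), 19 (cyclic loess) and 16 (normexp). The comparison with strong genes was added after seeing the data. No paired analysis was possible because each genotype holds 1 array. Weak signals limit Rpl10l, Rpl7l1 and Rps4l, and no array can show how much animals differ.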

Other observations

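Of the symbols left out of the members by name, Rpl17-ps8, Rpl31-ps12 and Rpl34-ps1 had signals above 1000 on every array and read 0.19, 0.15 and 0.25 in AtmsKO against WT and -0.23, -0.28 and -0.35 in Atmp38dKO against AtmsKO. Rps27l, a p53 target and not a constitutive subunit, gave 343, 354 and 441, or 0.12 and 0.027. Rps19bp1 gave 159, 177 and 155, or 0.23 and -0.48.

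The 4 members on the X chromosome (Rpl10, Rpl36a, Rpl39 and Rps4x), a group chosen after its values were seen, had a median of 0.0024 in AtmsKO against WT and -0.10 in Atmp38dKO against AtmsKO, beside 0.083 and -0.19 for all members. With 4 genes and 1 array per genotype this is a description of these arrays.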
